A study of Mus musculus with 6 samples.

Results

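The members are 10 genes of signalling by tumour necrosis factor (TNF). They include the ligand Tnf, the protease Adam17, the receptors Tnfrsf1a and Tnfrsf1b, and the adaptors Traf1 and Traf2. The others are the ubiquitin ligases Birc2 and Birc3, and Tnfaip3 and Tnfaip2, which are named for induction by TNF. The members were chosen by gene name from the 25032 genes of the deposited annotation table. All 10 were found there and passed the filter on low counts. The cells were BV2, an immortalised line of mouse microglia, and poly(A) RNA was sequenced. Of the 6 libraries, 3 were labelled as overexpressing GFP and 3 as overexpressing TDP43-NLS, which the series' design text describes as TDP-43 with a mutated nuclear localisation signal. The series title names microglial necroptosis, a form of cell death that TNF is known to start. The labels state no other treatment, no time point, no promoter for the constructs and no separate cultures, so the p-values measure only the spread between these libraries, which may be technical.

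TNF is made as a membrane protein and is released when ADAM17 cuts it at the cell surface. TNFR1 is found on most cell types and carries a death domain, whereas TNFR2 lacks that domain and is found mainly on immune, glial and endothelial cells. TNF bound to TNFR1 gathers TRAF2 and the cellular inhibitors of apoptosis cIAP1 and cIAP2 into a complex that activates NF-kB, and A20, the product of Tnfaip3, edits ubiquitin chains to end that signal. Microglia are a main source of TNF in the brain.

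Totals ran from 15062131 to 18005592 reads per library. Tardbp, the mouse gene for TDP-43, was read 7160 to 8154 times per GFP library and 5671 to 6633 times per TDP43-NLS library. Its log2 fold change was -0.26, a called fall (edgeR adjusted p = 0.000291). The construct itself has no row and the labels do not state its species, so directions below rest on the labels. GFP replicate 2 stood apart: its chi-square per degree of freedom was 7.18 and 7.24 against the other GFP libraries, which gave 1.20 against each other. Of 12 microglia and macrophage markers all were read, with summed levels of 2666 to 2704 CPM (reads scaled to the size of the library) in the GFP group and 2480 to 2536 in the TDP43-NLS group. The sum hides opposite moves of single markers, with log2 fold changes from -2.27 to 1.51. At an adjusted p under 0.05 in edgeR 4 rose and 6 fell, against 29.3% and 28.2% of all tested genes. P2ry12 went from 64 to 13 reads per group and Aif1 from 187 to 535. Fibroblast markers summed to at most 0.118 and 0.135 CPM (Dcn and Lum at 0) and T cell markers to 1.01 to 1.08 and 0 to 0.346 CPM (Cd3e, Cd3g and Cd8a at 0). Neuron markers summed to 6.5 to 8.88 and 27.4 to 36.4 CPM, all of it from Syn1, with Rbfox3, Snap25, Syt1 and Stmn2 at 0 reads. Oligodendrocyte markers summed to 3.14 to 5.33 and 3.48 to 5.33 CPM, with Mog at 0. Astrocyte markers summed to 125 to 135 and 143 to 147 CPM, with Aqp4 at 0 and most of the sum in Aldoc. Endothelial markers summed to 129 to 142 and 185 to 190 CPM, most of it Flt1. In reads per group, Pecam1 went from 8 to 75 and Tek from 1 to 32, while Cdh5 had 18 and 13 and Cldn5 0 and 1. The part of any of these in the results below was not tested.

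Of the 10 genes, 6 rose and 2 fell in the TDP43-NLS libraries in edgeR's quasi-likelihood test at an adjusted p under 0.05 (Benjamini-Hochberg over 13199 tested genes). Among all tested genes 29.3% rose and 28.2% fell, so the number of falls lies near the background. The rises were Tnf, Adam17, Tnfrsf1b, Traf1, Tnfaip3 and Tnfaip2, and the falls were Traf2 and Birc3. The libraries of the groups did not overlap in 8 of the 10 genes, against 63.2% of all tested genes. An absolute log2 fold change of at least 1 was reached by 3 of them, Tnf, Traf1 and Tnfaip3, and by 10.0% of all tested genes. Without GFP replicate 2, all 6 rises and both falls kept their calls and Birc2 fell as well. The RNA comes from whole cultures, so fewer cells that express a gene and less RNA of it per cell cannot be told apart.

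**Figure D1:**
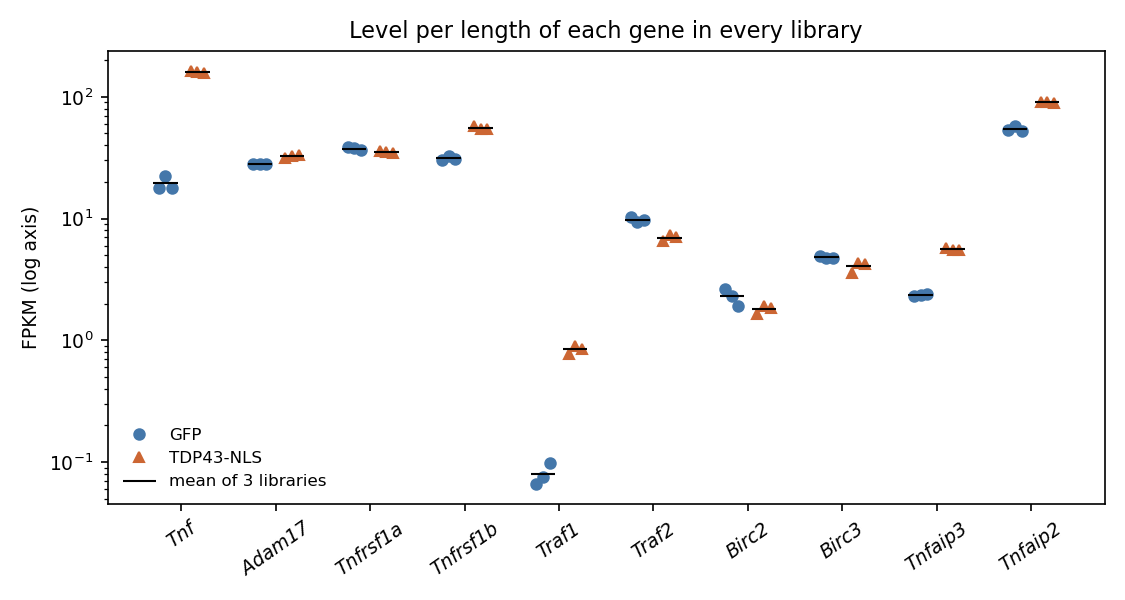
Level per length of the 10 genes in each library, in FPKM (reads per kilobase of gene, scaled to the reads of the library) on a log axis; points are libraries and lines are means of 3. Tnf moves from between 17.9 and 22.6 to between 156 and 162 FPKM, while Tnfrsf1a stays between 34.5 and 38.5.

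The ligand showed the widest move in level. Tnf (ENSMUSG00000024401, GRCm39 chromosome 17, 35418357 to 35420983, minus strand) stood at 17.9, 22.6 and 17.9 FPKM in the GFP libraries and at 162, 159 and 156 FPKM in the TDP43-NLS libraries. GFP replicate 2 was the highest of its group, and the lowest TDP43-NLS library was still far above it. The log2 fold change was 3.07 with a standard error of 0.07 (adjusted p = 1.69e-12, higher in 3 of 3 libraries), an 8.39-fold rise with a 95% confidence interval of 7.53 to 9.33. By mean level Tnf moved from place 3067 to place 267 among the 25032 genes of the FPKM table, and from the fifth of the 10 members to the highest. The log2 fold change of Tnf ranks 105 from the top of the tested genes. Without GFP replicate 2 it was 3.19.

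Promoter sequence is shown for Tnf, Tnfaip3 and Tnfaip2. RefSeq promoter windows on GRCm38.p6, the earlier mouse build, were found for all 10 genes, 12 windows in all, and the 250 bases before the annotated start were searched. The sequences run 5′ to 3′, and capitals mark matches to the kappaB consensus, the binding motif of NF-kB, on either strand, and to the TATA box TATAAA on the gene's own strand.
Tnf, chr17:35202008-35202257, minus strand: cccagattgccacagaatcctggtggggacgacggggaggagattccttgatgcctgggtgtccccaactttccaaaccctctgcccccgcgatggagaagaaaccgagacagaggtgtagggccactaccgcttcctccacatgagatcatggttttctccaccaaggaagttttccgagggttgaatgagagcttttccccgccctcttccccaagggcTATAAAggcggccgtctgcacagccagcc
Tnfaip3, chr10:19015411-19015660, minus strand: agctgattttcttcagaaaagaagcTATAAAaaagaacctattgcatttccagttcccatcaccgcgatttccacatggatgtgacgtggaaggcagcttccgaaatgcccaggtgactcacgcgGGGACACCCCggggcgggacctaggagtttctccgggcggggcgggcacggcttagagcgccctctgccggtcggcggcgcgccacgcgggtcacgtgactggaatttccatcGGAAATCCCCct
Tnfaip2, chr12:111442411-111442660, plus strand: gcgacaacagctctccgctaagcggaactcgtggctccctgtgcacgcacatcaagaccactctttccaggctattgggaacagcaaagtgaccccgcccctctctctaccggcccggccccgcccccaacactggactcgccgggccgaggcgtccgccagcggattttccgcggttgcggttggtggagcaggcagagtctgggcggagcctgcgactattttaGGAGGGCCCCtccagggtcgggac

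In the Tnf window the TATA box lies 29 to 24 bases before the start, and no kappaB match was found in these 250 bases. Tnfaip3 has kappaB matches at 125 to 116 bases (GGGACACCCC) and at 12 to 3 bases (GGAAATCCCC) before the start of the window shown, and a TATAAA at 225 to 220. Tnfaip2 has a kappaB match at 24 to 15 bases (GGAGGGCCCC). The consensus was thus found in 2 of the 12 member windows, both shown above, and in 7.25% of all 32851 windows of the same length. Adam17, Tnfrsf1b and Traf1, which also rose, had no kappaB match and are not shown. Another Tnfaip3 window, not shown either, had no kappaB match. TATAAA was found in 2 of the 12 and in 7.59% of all. The AP-1 motif TGANTCA, searched on both strands, was in the Tnfaip3 window shown, alone of the 12, and in 6.75% of all. The cyclic AMP response element TGACGTCA was in a Birc2 window alone of the 12, 35 to 28 bases before the start, and in 1.55% of all. The PU.1 core GAGGAA, on both strands, was in the windows of Tnf, Tnfrsf1b, Traf2 and Birc3 and in 23.3% of all. None of these matches overlaps another, and a match describes letters in the sequence, not a bound site.

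Adam17, the protease that releases TNF, rose by a small amount. It stood at 27.9, 28.3 and 28.0 FPKM in the GFP libraries and at 31.3, 32.6 and 33.3 FPKM in the TDP43-NLS libraries. The groups did not overlap, and the log2 fold change was 0.24 with a standard error of 0.04 (adjusted p = 0.000157, an 18.4% rise). The call ended when the change was tested against a log2 fold change of 0.5 (adjusted p = 1). Adam17 (ENSMUSG00000052593, chromosome 12, 21373510 to 21423633, minus strand) overlaps Iah1 on the opposite strand, which had 1047 reads over the GFP libraries and 2200 over the TDP43-NLS libraries. The library kit named in the labels does not mark strand, so reads of the shared stretch cannot be told apart and the value of Adam17 is uncertain.

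The receptors moved apart. Tnfrsf1a, the gene of TNFR1 (ENSMUSG00000030341, chromosome 6, 125326325 to 125339447, plus strand), stood at 38.5, 38.0 and 36.3 FPKM against 35.8, 35.1 and 34.5 FPKM. The GFP libraries lay slightly higher, and the groups overlapped after TMM scaling, at 93.2 to 98.7 CPM against 90.8 to 94.2 CPM. The log2 fold change was -0.06, with a 95% confidence interval of -0.16 to 0.04 (adjusted p = 0.257), or 0.897-fold to 1.03-fold. Tnfrsf1b, the gene of TNFR2 (ENSMUSG00000028599, chromosome 4, 144940033 to 144973440, minus strand), stood at 30.1, 32.5 and 30.9 FPKM and at 58.1, 54.6 and 54.8 FPKM. No library of either group came near the other group. Its log2 fold change was 0.88 with a standard error of 0.05 (adjusted p = 3.52e-09, a 1.84-fold rise).

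Within each library the ratio of Tnfrsf1b to Tnfrsf1a, which does not depend on the scaling between libraries, was 0.781, 0.855 and 0.852 under GFP and 1.62, 1.55 and 1.59 under TDP43-NLS. Tnfrsf1a was thus the more abundant of the pair per length in every GFP library and Tnfrsf1b in every TDP43-NLS library. The mean ratio went from 0.829 ± 0.0419 to 1.59 ± 0.0358 (SD, n = 3 each), and a two-sided exact permutation test gave p = 0.1, the smallest that 3 against 3 allows (0.15 adjusted over the 3 ratios tested). Tnfrsf1b made up 43.8% to 46.1% of the summed receptor FPKM under GFP and 60.8% to 61.9% under TDP43-NLS. The ligand's FPKM divided by that of both receptors together was 0.261 to 0.320 under GFP and 1.72 to 1.78 under TDP43-NLS. These are ratios of RNA levels.

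**Figure D2:**
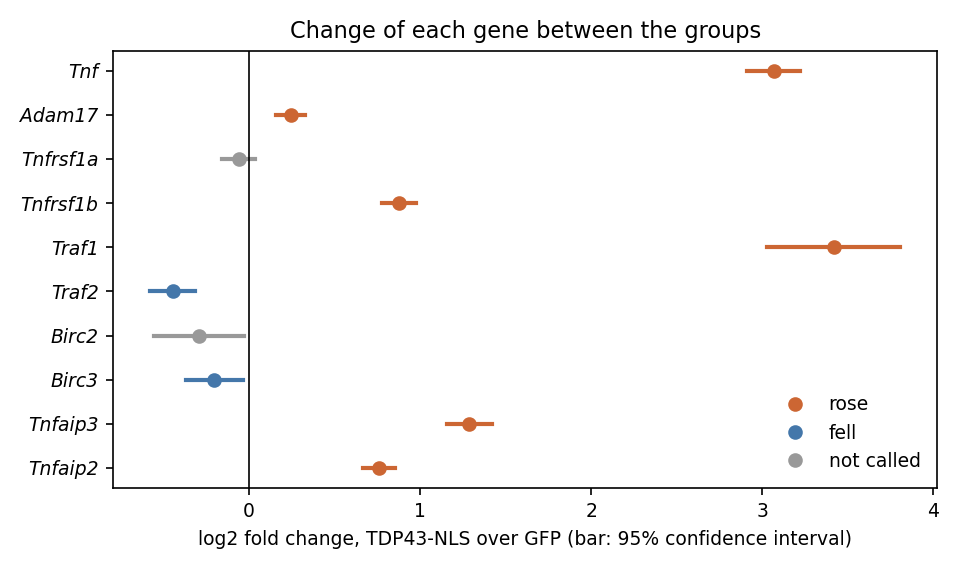
Log2 fold change of the 10 genes between TDP43-NLS and GFP libraries, with 95% confidence intervals from edgeR's quasi-likelihood fit; colour gives the call. Tnf at 3.07 and Traf1 at 3.42 stand far to the right, and the intervals of Birc2 and Birc3 come close to 0.

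Of the adaptors, Traf1 rose and Traf2 fell. TRAF1 lacks the RING domain of the other TRAF proteins and acts together with TRAF2, and its gene is a known NF-kB target. Traf1 (ENSMUSG00000026875, chromosome 2, 34831762 to 34851784, minus strand) was read 9, 11 and 15 times under GFP and 103, 144 and 131 times under TDP43-NLS. It remained the lowest of the 10 genes in each group, at 0.0664, 0.0748 and 0.0979 FPKM and then 0.775, 0.907 and 0.843 FPKM. At 3.42 its log2 fold change was the largest of the 10, and the standard error was 0.18 (adjusted p = 3.86e-09). The 10.7-fold rise has an interval of 8.16 to 14.0, the widest among them on this scale, and the 35 GFP reads in all carry a 95% Poisson interval of 24.4 to 48.7 that covers counting error only. On the log2(FPKM + 1) scale, which compresses low values, the difference was 0.77 (limma adjusted p = 0.000169), and a filter on a mean of 0.5 FPKM removed the gene.

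Traf2 (ENSMUSG00000026942, chromosome 2, 25407994 to 25436952, minus strand), the adaptor that brings the IAP ligases to the receptor, stood at 10.3, 9.36 and 9.65 FPKM under GFP and at 6.52, 7.31 and 7.07 FPKM under TDP43-NLS. All TDP43-NLS libraries were below all GFP libraries. It fell by 0.45 on the log2 scale (standard error 0.06, adjusted p = 2.80e-05), a change of -26.6%. Tested against a log2 fold change of 0.5 it was not called (adjusted p = 1). The ratio of Traf1 to Traf2 was 0.00648, 0.00799 and 0.0101 under GFP and 0.119, 0.124 and 0.119 under TDP43-NLS (exact permutation p = 0.1, two-sided, 0.15 adjusted). Traf2 therefore stayed well above Traf1 per length in each library. With 0.1 added to each FPKM the log2 difference of that ratio was 2.87 in place of 3.90.

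The IAP ligases Birc2 and Birc3, whose products cIAP1 and cIAP2 attach ubiquitin to RIPK1, lie next to each other on chromosome 9 and were both lower by small amounts. Birc3 (ENSMUSG00000032000, 7848700 to 7873187, minus strand) stood at 4.90, 4.76 and 4.75 FPKM under GFP and at 3.57, 4.32 and 4.25 FPKM under TDP43-NLS. TDP43-NLS replicate 1 was the lowest library. It fell by 0.20 on the log2 scale (standard error 0.08, edgeR adjusted p = 0.0374). Birc2 (ENSMUSG00000057367, 7818228 to 7837065, minus strand) stood at 2.66, 2.31 and 1.91 FPKM and at 1.65, 1.92 and 1.86 FPKM. GFP replicate 3 overlapped the TDP43-NLS libraries. Its log2 fold change was -0.29 with a standard error of 0.12 and an interval of -0.56 to -0.03 that is not adjusted for the number of genes (adjusted p = 0.056).

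The call of each moved with the setting. The fall of Birc3 lost its call in edgeR's test without GFP replicate 1 (adjusted p = 0.0899), without GFP replicate 3 (0.0662), without TDP43-NLS replicate 1 (0.166) and without TDP43-NLS replicate 3 (0.0531), and in DESeq2 (0.119). Without TDP43-NLS replicate 1 its log2 fold change was -0.12. Birc2 gained a call without GFP replicate 2 (edgeR adjusted p = 0.0415), without GFP replicate 3 (0.0096), without the low-count filter (0.0289) and with upper quartile scaling (0.046), and without GFP replicate 1 its log2 fold change was -0.18. The ratio of Birc3 to Birc2 was 1.84, 2.06 and 2.48 under GFP and 2.16, 2.26 and 2.29 under TDP43-NLS (exact permutation p = 0.6, two-sided). The TDP43-NLS values lie inside the range of the GFP values.

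**Figure D3:**
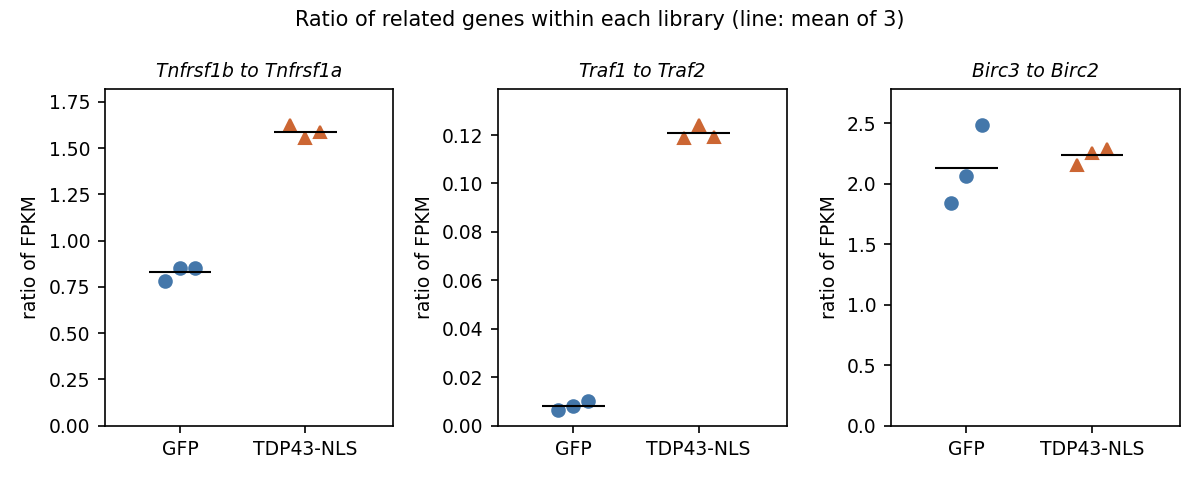
Ratio of FPKM between related genes within each library, on linear axes that start at 0; points are libraries and lines are means of 3. The groups are separate for the receptors (0.781 to 0.855 against 1.55 to 1.62) and for the TRAF adaptors, and overlap for the IAP ligases.

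Tnfaip3 and Tnfaip2, the members named for induction by TNF, both rose. Tnfaip3, which encodes the brake A20 (ENSMUSG00000019850, chromosome 10, 18876658 to 18891405, minus strand), stood at 2.32, 2.35 and 2.39 FPKM under GFP and at 5.79, 5.51 and 5.52 FPKM under TDP43-NLS. The coefficient of variation in FPKM was 1.6% and 2.79%, which 3 libraries per group estimate only roughly. The log2 fold change was 1.29 with a standard error of 0.06 (adjusted p = 1.15e-09, a 2.44-fold rise). Tnfaip2 (ENSMUSG00000021281, chromosome 12, 111408903 to 111421452, plus strand), whose product is involved in the formation of membrane nanotubes, was the highest of the 10 genes per length under GFP, at 53.3, 57.5 and 52.6 FPKM. It stood at 90.1, 90.2 and 89.4 FPKM in the TDP43-NLS libraries. The log2 fold change was 0.76 (standard error 0.04, adjusted p = 7.03e-09, a 1.69-fold rise).

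Set in order of mean FPKM, the GFP libraries gave Tnfaip2, Tnfrsf1a, Tnfrsf1b, Adam17, Tnf, Traf2, Birc3, Tnfaip3, Birc2 and Traf1. In that order the libraries of Tnfaip3 (2.32 to 2.39 FPKM) and Birc2 (1.91 to 2.66 FPKM) overlapped, and all other neighbours were separate in every library. The TDP43-NLS libraries gave Tnf, Tnfaip2, Tnfrsf1b, Tnfrsf1a, Adam17, Traf2, Tnfaip3, Birc3, Birc2 and Traf1, with no overlap between neighbours. Tnf passed the 4 genes above it, Tnfrsf1b passed Tnfrsf1a, and Tnfaip3 passed Birc3.

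Tested genes with levels close to those of Tnf were sought by Euclidean distance over the 6 values of log2(FPKM + 1). Only established symbols were kept, which leaves out Gm, Rik and predicted names. The nearest 5 of these were Ier3, Acod1, Cd52, Cfp and Itgb7. Ier3, an early response gene, was nearest at a distance of 0.493, with a mean of 20.7 FPKM under GFP and 147 FPKM under TDP43-NLS. Acod1, the enzyme that makes itaconate, followed at 1.11, with 21.3 and 245 FPKM. Cd52, a small surface glycoprotein, lay at 1.32, the complement activator Cfp at 1.69 and the integrin subunit Itgb7 at 1.84. The measure reads level and group difference together, and with 2 groups of 3 libraries it mostly finds genes of like level in each group.

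The remaining genes of the pathway were taken from 9 lists with 115 genes, chosen with earlier results of these data known. Of these, 93 were tested, and 47 rose and 20 fell, so 72% were called against 57.5% of all tested genes. Over all tested genes 29.3% rose and 28.2% fell, the background for the counts of each list below. The called share was lowest for the genes acting on Tnf RNA, 58.3%, and highest for the other IAP genes and antagonists, 88.9%. The median log2 fold change was 0.19 over the lists and 0.00 over all tested genes. With a change of 0.5 on the log2 scale as the value to exceed, the 93 tested list genes kept 15 rises and 0 falls. At that threshold the 13199 tested genes kept 1221 rises and 744 falls. For each list the 3 genes with the highest mean FPKM are named, and the called gene with the largest change.

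**Figure D4:**
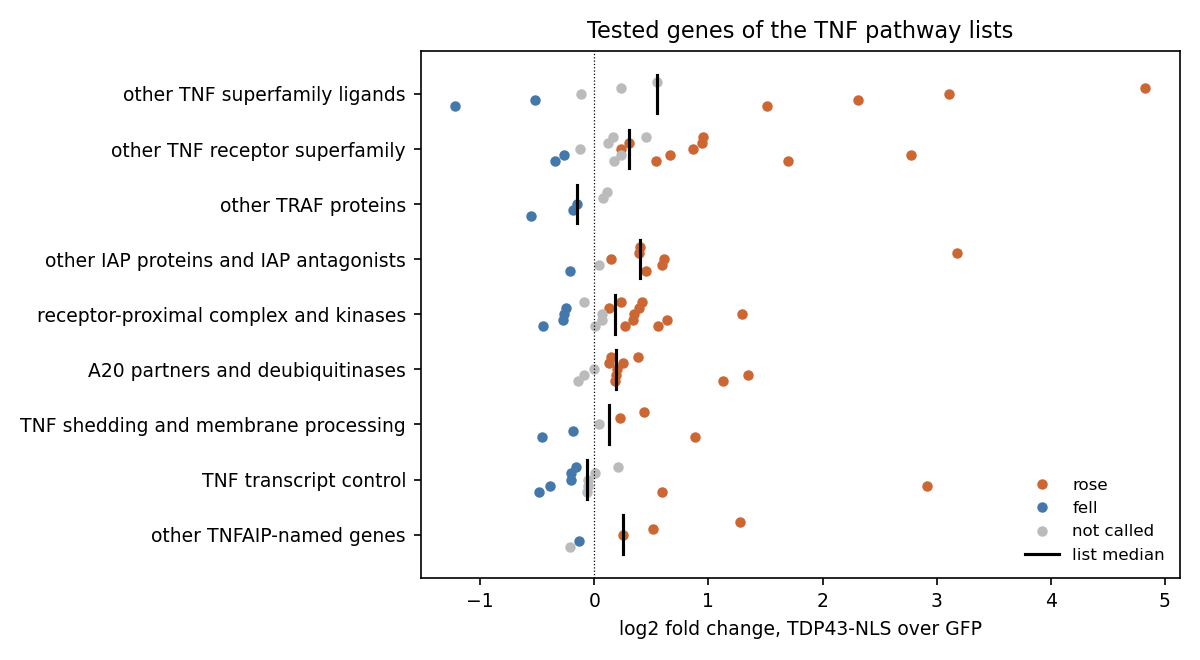
Log2 fold change of the 93 tested genes of the 9 pathway lists; each point is a gene, its colour gives the call and the black bar is the list median. The ligand list reaches from -1.22 to 4.83, and the other TRAF genes lie between -0.56 and 0.11.

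Among the other ligands of the TNF superfamily, 9 of 17 were tested, and 4 rose and 2 fell, with a median log2 fold change of 0.55. Lta, the gene of lymphotoxin alpha, which binds the same receptors as TNF, was read 1, 1 and 2 times under GFP and 36, 45 and 43 times under TDP43-NLS. Its log2 fold change was 4.83 (standard error 0.34, edgeR adjusted p = 6.06e-08). The mean level went from 0.0579 FPKM under GFP to 1.77 FPKM under TDP43-NLS, far below Tnf in each group. Tnfsf9, the ligand of 4-1BB, had the highest level of the list and rose from 11.8 ± 0.759 to 32.9 ± 2.06 FPKM (SD, n = 3 each, log2 fold change 1.51). Tnfsf14, known as LIGHT, rose from 0.896 to 7.60 FPKM (log2 fold change 3.11). Tnfsf12, known as TWEAK, had 2.76 and 2.48 FPKM (log2 fold change -0.12, adjusted p = 0.598).

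Of the other receptors of the superfamily, 17 of 26 were tested, and 9 rose and 2 fell, with a median of 0.30. Tnfrsf9, which encodes 4-1BB, the receptor of the Tnfsf9 product, rose from 3.27 ± 0.145 to 21.9 ± 1.17 FPKM (SD, n = 3 each, log2 fold change 2.78, edgeR adjusted p = 3.38e-12). Ligand and receptor of this pair thus both rose. Tnfrsf26 rose from 16.0 to 24.8 FPKM (log2 fold change 0.67), and its value is uncertain because it has close copies in Tnfrsf22 and Tnfrsf23. Ltbr, the lymphotoxin beta receptor and one of the most abundant of the list, had 23.1 and 24.5 FPKM (log2 fold change 0.12, adjusted p = 0.1).

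No other TRAF gene was called as a rise. Of 5 tested, 3 fell and 0 rose by edgeR, with a median log2 fold change of -0.15. Traf5 fell by 0.56 on the log2 scale, from 1.30 to 0.860 FPKM, Traf6 by 0.18, from 5.92 to 5.08 FPKM, and Traf7 by 0.15, from 13.1 to 11.5 FPKM. Traf3, an inhibitor of the noncanonical NF-kB pathway, had a log2 fold change of 0.08 (adjusted p = 0.163) and Traf4 one of 0.11 (0.211).

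Of the other IAP genes and their antagonists, 9 of 10 were tested, and 7 rose and 1 fell, with a median of 0.40. Naip1, an IAP family member that senses bacterial proteins for the inflammasome, had the largest change, from 0.426 to 3.78 FPKM (log2 fold change 3.18, standard error 0.12, edgeR adjusted p = 1.25e-10). Naip1, Naip2, Naip5 and Naip6, all among the rises, lie close together on chromosome 13, and the list median is the value of Naip2. The Naip genes are related copies whose likeness was not measured here, so how any shared reads were divided is uncertain. Xiap (0.15) and Diablo (0.61) rose as well. Birc6, a large ubiquitin ligase, rose from 8.42 to 10.8 FPKM (0.40). Birc5, survivin, which acts in cell division, fell by 0.21, from 29.9 to 25.1 FPKM. Htra2, a protease that opposes IAP proteins, had 32.2 and 32.3 FPKM (0.04, adjusted p = 0.554).

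Among 18 genes of the receptor complex and its kinases, all tested, 10 rose and 4 fell, with a median of 0.18. Map3k8, the kinase TPL2, which links TNF receptors to ERK, rose from 1.20 ± 0.119 to 2.88 ± 0.0962 FPKM (SD, n = 3 each, log2 fold change 1.29, edgeR adjusted p = 1.77e-07). Tab2, which couples ubiquitin chains to the kinase TAK1, fell by 0.25, from 18.2 to 14.9 FPKM. Casp8 rose from 27.9 to 31.9 FPKM (0.23). Rbck1, the HOIL-1 subunit of the linear ubiquitin ligase, had 27.9 and 29.7 FPKM (0.13), with an adjusted p at the threshold (0.05 after rounding).

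Of 12 tested A20 partners and deubiquitinases, 9 rose and none fell (0 at the adjusted threshold in edgeR), with a median of 0.19. Tnip1 and Tnip3 encode ABIN proteins, which bind A20, and they were the farthest from 0. Tnip1 stood at 27.4, 31.7 and 29.0 FPKM under GFP and at 64.8, 61.5 and 61.8 FPKM under TDP43-NLS (log2 fold change 1.13, standard error 0.05, edgeR adjusted p = 1.15e-09). Tnip3 was low and rose from 0.198 to 0.489 FPKM (1.35), and Tnip2 rose from 14.4 to 18.3 FPKM (0.38). Otulin, which removes linear ubiquitin chains, rose from 60.1 to 64.9 FPKM (0.15).

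In the list of TNF shedding and membrane processing, 6 of 8 genes were tested, and 3 rose and 2 fell, with a median of 0.13. Rhbdf2 encodes iRhom2, the partner that carries ADAM17 to the cell surface in macrophages. It rose from 10.4 ± 0.570 to 18.7 ± 0.868 FPKM (SD, n = 3 each, log2 fold change 0.89, edgeR adjusted p = 1.86e-08). Adam10, the related protease, fell by 0.46, from 36.3 to 25.7 FPKM. Frmd8, which stabilises the iRhom complex, had 16.4 and 16.5 FPKM (0.04, adjusted p = 0.533).

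Of the 12 genes listed as acting on the production or decay of Tnf RNA, all tested, 2 rose and 5 fell, with a median of -0.06. Zc3h12a, which encodes regnase-1, a nuclease that cuts inflammatory transcripts, rose from 2.83 ± 0.210 to 20.8 ± 0.909 FPKM (SD, n = 3 each, log2 fold change 2.92, edgeR adjusted p = 2.93e-12). Mapkapk2, the kinase MK2, which favours TNF production, fell by 0.49, from 189 to 132 FPKM. Litaf had 115 and 112 FPKM (0.00, adjusted p = 0.941). Zfp36l2 had 44.3 ± 9.91 and 49.9 ± 2.34 FPKM (SD, n = 3 each, 0.21, adjusted p = 0.122), and GFP replicate 2 was the highest library, at 55.8 FPKM.

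Other genes that carry the TNFAIP name share it with Tnfaip3 and Tnfaip2 but belong to unrelated families. Of 5 tested, 3 rose and 1 fell, with a median of 0.25. Tnfaip8l2, a regulator of immune signalling, rose from 51.6 to 71.9 FPKM (0.51), and Tnfaip8 from 3.26 to 3.77 FPKM (0.25). Tnfaip6, the third that rose, was low, with 25 reads under GFP and 61 under TDP43-NLS (1.28). Tnfaip1 fell by 0.14, from 38.0 to 33.7 FPKM.

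Genes beside the members in the genome were counted where any of their body lay within 500 kb of the member's body on either side, on GRCm39, to show whether a member moved with its surroundings. Around Tnf 42 genes were tested, of which 15 rose and 11 fell, and their median log2 fold change was 0.05. Lta alone exceeded Tnf among them. A distance of 30 kb from the start of Tnf was chosen after the values were seen. Of the 6 tested genes that start within it, 5 rose and 0 fell, against 29.3% and 28.2% of all tested genes. Their median log2 fold change was 1.6. They include Lta and also Ltb, the partner of lymphotoxin alpha, which had 9, 9 and 11 reads under GFP and 53, 46 and 46 under TDP43-NLS (log2 fold change 2.31, edgeR adjusted p = 2.88e-06). The myeloid genes Lst1 and Aif1 rose by 1.69 and 1.51 on the log2 scale. Just beyond 30 kb, Atp6v1g2 was not called (0.26), Nfkbil1 rose (0.46) and Prrc2a fell (-0.22), so these counts depend on the distance chosen. Around Traf1, 15 genes were tested with a median of -0.07 and a highest value of 0.80, far below Traf1.

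Traf2 stood among genes that were lower. Of 29 tested neighbours 15 fell and 2 rose, against 28.2% of all tested genes that fell, with a median of -0.31, and 8 of them lay below Traf2. For Birc2 and Birc3, whose windows share genes, 5 neighbours each were tested, the other of the pair included, and the medians were -0.02. Tmem123, which lies beside them, fell by 0.51, while Mmp8 and Mmp12 rose by 1.41 and 0.43. Tnfrsf1a had 28 tested neighbours (6 rose, 12 fell, median -0.14), Tnfrsf1b 6 (3 rose, 0 fell, 0.36), Tnfaip2 19 (4 rose, 2 fell, 0.10), Adam17 5 (4 rose, 0 fell, 0.21) and Tnfaip3 1, which rose. The part of a shared surrounding in the members' changes was not tested.

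**Figure D5:**
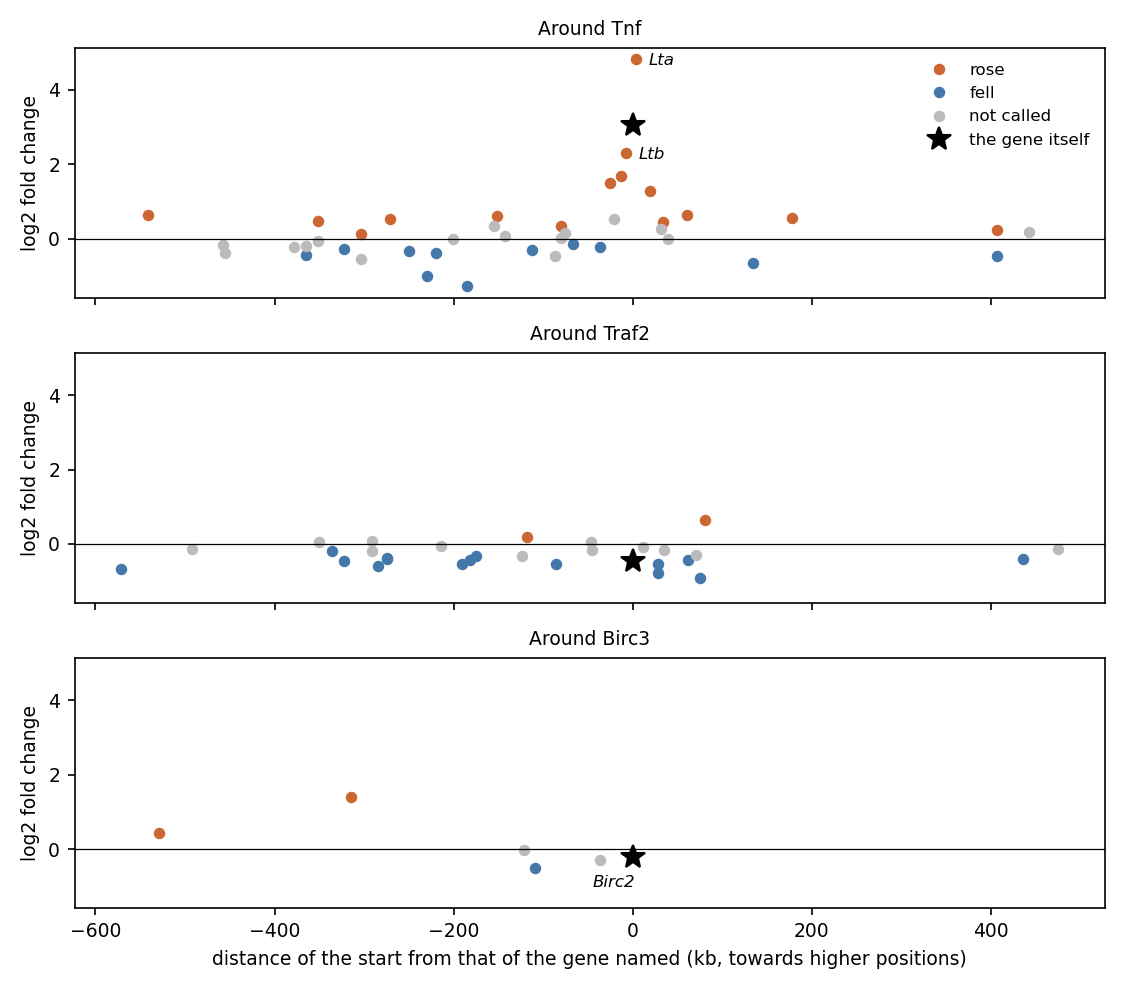
Log2 fold change of tested genes whose bodies reach within 500 kb of Tnf, Traf2 and Birc3, against the distance of their starts in kb; the star is the gene itself and colour gives the call. Lta and Ltb lie beside Tnf with log2 fold changes of 4.83 and 2.31, and 15 of the 29 genes around Traf2 fell.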

How the data were processed

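The members, the lists and the tests were chosen with earlier results of these data known. The authors deposited raw read counts of 55359 genes in 6 libraries, and FPKM values (counts scaled by gene length and library size) of the 25032 genes that had a read. The build GRCm39 and the tools Bowtie2 2.2.3, HISAT2 2.1.0 and HTSeq 0.6.0 are named, without their roles, per the submitters' processing notes. How multiply mapped reads were counted is not stated there.

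Counts were tested with edgeR 4.0.16 in R 4.3.3: filterByExpr (10 reads, 15 in total), TMM scaling and the two-sided quasi-likelihood test with the group as the only term, over 13199 genes. A standard error is the log2 fold change divided by the square root of F. FPKM values were used for levels and within-library ratios, tested with an exact permutation test (scipy 1.17.1). Alternatives used DESeq2 1.42.0, limma 3.58.1 (pseudocounts 1 and 0.1), other scalings and filters, the replicate number as a block, and each library left out. The test was checked on simulated counts. Named genes are the 10 members, and per list 3 genes by mean FPKM and the called gene with the largest change (mean of at least 1 CPM). The 5 genes nearest to Tnf, among established symbols only, are named as well. Others were chosen after their values were seen.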

Additional observations from a re-analysis of the deposited data

How the results depend on the processing

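None of the 158 values of a member's log2 fold change under 16 alternatives changed direction, and 145 kept their side of the threshold as well. The 6 rises kept their calls under every setting of the count tests against 0 and in each set with a library left out. Tested against a log2 fold change of 0.5, no member fell (0), with an adjusted p = 1 for Traf2 (-0.45), Birc3 (-0.20) and Adam17 (0.24). That test left 1221 rises and 744 falls among all 13199 tested genes, and 15 rises and 0 falls among the 93 of the pathway lists. A single fall was left (1) in DESeq2 and in limma on log2(FPKM + 1) without a filter, since Birc3 was not called there (-0.21 and -0.20). With a library left out, between 1 and 3 members fell, the log2 fold change of Birc2 ran from -0.41 to -0.18 and that of Birc3 from -0.25 to -0.12. Birc2 gained a call with upper quartile scaling (-0.31) and without the low-count filter (-0.28). The log2 difference of the Birc3 to Birc2 ratio, 0.08, ran from -0.02 to 0.20 with a library left out and was -0.0198 without GFP replicate 1. With 0.1 added to each FPKM the Traf1 to Traf2 difference was 2.87. The median around Tnfaip3, with 1 tested neighbour, was 0.35 in a window of 1000 kb. The causes were not tested. Libraries with the same replicate number showed no sign of pairing: their deviations correlated at -0.016, -0.0112 and 0.00189. Whether equal numbers were handled together cannot be told from these values. With the number as a replicate block, 6 members rose and 2 fell, 45 and 20 genes of the lists, and 3848 and 3680 of all genes. Traf1 and Lta rest on few GFP reads, which limits their precision.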
